A study of Mus musculus with 8 samples.

Results

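The genes described here are the clustered histone genes of the mouse, chosen as every gene whose symbol begins with Hist and a digit. The rule took 68 of the 23278 genes in the deposited tables. By symbol they were 6 genes of the linker histone H1 and 18, 19, 12 and 13 genes of the core histones H2A, H2B, H3 and H4. The symbols of 54 began with Hist1, of 10 with Hist2, of 3 with Hist3 and of 1 with Hist4. Lumbar spinal cords were taken on postnatal day 1 from mice on the FVB/N background, motor neurons or white matter were cut out by laser capture, and their total RNA was sequenced. Tissue came from wild-type (WT) mice and from mice of the spinal muscular atrophy (SMA) genotype SMN2+/+;SMNΔ7+/+;Smn-/-. Such mice lack mouse Smn and live on human SMN2 and a human SMN transgene that lacks an exon. With 2 libraries each, the groups were WT motor neurons, SMA motor neurons, WT white matter and SMA white matter. Captures were picked on sections stained with Mayer's hematoxylin, without a marker gene. The sources used here name neither the transgene promoters nor the number of animals behind a library. P-values therefore measure only the spread between these libraries.

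Replication-dependent histone genes are transcribed mainly in S phase, when new DNA has to be packed into nucleosomes. Their mRNAs end in a conserved stem-loop in place of a poly(A) tail. The stem-loop binding protein (Slbp) holds this end, and the U7 particle, whose ring contains Lsm10 and Lsm11, guides the cleavage that forms it. The SMN complex assembles the rings of spliceosomal particles and of the U7 particle. Motor neurons have left the cell cycle by birth, whereas glial precursors of the newborn white matter still divide. Some clustered histone genes are also known to make polyadenylated transcripts in cells that no longer divide. How cDNA was primed, which sets the yield of RNA with and without a poly(A) tail, is not stated in these sources.

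The label was first checked against sequence, since the stem-loop defines this class of mRNA. In GENCODE M21 transcripts (GRCm38, another build than the mm9 of the deposited values), the histone stem-loop lay within the bases after the stop codon in 45 of the 52 genes with at least 26 annotated bases there (86.5%). Over all 68 genes the share was 66.18%. A wider search over whole transcripts, with no such minimum, found it in 7 of 21810 protein-coding genes outside the group (0.0321%). This share and those of the histone genes are therefore not strictly like for like. In the histone genes the stem-loop began 21 to 58 bases after the stop codon, with a median of 31. The following ends are shown for the H2B gene with the smallest p between regions in WT, the most abundant gene, a further abundant H2B gene, and a pair from the Hist3 cluster whose differences, not past the threshold, were above 0. Capitals mark the 16 bases of the stem-loop, and the 5 bases on either side are in lower case.
Hist1h2bm (chr13:21722501-21722526, + strand): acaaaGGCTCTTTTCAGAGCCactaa
Hist1h4d (chr13:23581945-23581970, + strand): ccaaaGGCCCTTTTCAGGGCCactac
Hist1h2bk (chr13:22036295-22036320, + strand): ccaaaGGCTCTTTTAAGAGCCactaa
Hist3h2ba (chr11:58949344-58949369, + strand): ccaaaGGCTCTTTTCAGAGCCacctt
Hist3h2a (chr11:58955167-58955192, + strand): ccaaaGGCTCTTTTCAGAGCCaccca
The letters of the stem followed the family. All 33 stem-loops of H1, H2A, H2B and H3 genes began with GGCTC, and none of the 12 of H4 genes did. Of the H4 stem-loops, 10 began with GGCCC and 2, in Hist1h4b and Hist1h4j, with GGTCC. The form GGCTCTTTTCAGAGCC was shared by 25 genes.

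Promoters also differed by family. RefSeq promoter windows (GRCm38.p6, 250 bases before to 50 after the start) were matched for 61 of the genes and searched on both strands for the letters CCAAT of the CCAAT box, for the letters TATAAA of the TATA box and for the octamer ATTTGCAT. CCAAT was present in all 49 windows of H1, H2A, H2B and H3 genes but in 3 of 12 windows of H4 genes, against 37.92% of 27025 windows genome-wide. TATAAA was present in 35 of 61 windows (57.38%, against 14.16% genome-wide). The octamer was present in 13 of 61 (21.31%, against 1.754% genome-wide), of which 7 belonged to H2A and 6 to H2B genes. In 9 cases the windows of an H2A and an H2B gene on opposite strands overlapped by 220 to 279 bases, so that 18 genes stood in head-to-head pairs. A match in an overlap counts for both windows, so the motif counts above are not counts of separate sites. The octamer was in both windows of the pairs Hist1h2bk and Hist1h2ah, Hist1h2bg and Hist1h2ae, and Hist1h2aa and Hist1h2ba. Windows are shown for Hist1h2bm, for Hist2h2ab, which was called higher in motor neurons in SMA but not in WT, and for Hist3h2ba, which was called in neither. Capitals mark any of these motifs, read on either strand. A match is a string of letters, not a site shown to be used.
Hist1h2bm (chr13:21721794-21722093, + strand): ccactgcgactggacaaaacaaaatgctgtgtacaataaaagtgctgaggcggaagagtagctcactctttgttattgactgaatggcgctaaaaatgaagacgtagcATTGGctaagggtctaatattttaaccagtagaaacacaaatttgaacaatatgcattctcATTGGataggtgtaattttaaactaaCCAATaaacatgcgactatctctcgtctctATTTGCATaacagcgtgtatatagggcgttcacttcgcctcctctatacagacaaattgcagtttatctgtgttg
Hist2h2ab (chr3:96219635-96219934, + strand): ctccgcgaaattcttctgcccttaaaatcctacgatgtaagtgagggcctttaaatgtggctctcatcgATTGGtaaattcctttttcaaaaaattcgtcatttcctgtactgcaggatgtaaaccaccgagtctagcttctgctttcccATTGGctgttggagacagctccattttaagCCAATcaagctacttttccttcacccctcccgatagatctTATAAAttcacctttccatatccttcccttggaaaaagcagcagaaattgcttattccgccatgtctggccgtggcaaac
Hist3h2ba (chr11:58948661-58948960, + strand): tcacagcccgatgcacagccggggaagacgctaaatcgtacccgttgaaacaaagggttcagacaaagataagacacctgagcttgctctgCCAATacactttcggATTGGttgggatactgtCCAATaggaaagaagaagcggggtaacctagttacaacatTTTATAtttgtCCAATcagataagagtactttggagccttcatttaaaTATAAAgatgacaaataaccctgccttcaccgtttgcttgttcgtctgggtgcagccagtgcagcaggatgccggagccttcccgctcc

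All values below are RPKM, read counts scaled for gene length and library depth, as the authors deposited them. The steps between low RPKM values gave library denominators of 77.5 to 102.8 M reads and a whole number of reads for all 68 genes. The median histone gene had 208.5 to 267.5 reads in the motor neuron libraries and 710.5 to 1178.5 in the white matter libraries. Rn45s, the ribosomal RNA gene, took 19.4 to 33.45% of the RPKM sum. Smn1, the targeted gene, was at 2.93 to 14.3 RPKM in the WT libraries and listed at 0 in all 4 SMA libraries. Replicate 1 of each group had Xist at 12.6 RPKM or more and replicate 2 at 0.0581 RPKM or less, while Ddx3y of the Y chromosome went the other way. Replicate number therefore ran with these 2 genes in every group, and the labels give no sex.

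Many gene models are short and many reading frames alike, which limits what a single gene's value means. Model lengths were inferred from the steps between RPKM values, and reading frames were taken from GRCm38 transcripts. For 35 of the 68 genes the inferred length was that of the reading frame or less, and for 15 it was over 300 bases longer. Cut into stretches of 50 bases, the reading frame of the median histone gene shared 76.1% of them with other annotated transcripts. All stretches were shared in 15 genes, and in 5, namely Hist1h1a, Hist1h1b, Hist1h1t, Hist2h2be and Hist4h4, none was. Hist1h2bq and Hist1h2br carried identical values in every library, so 68 symbols held 67 different sets of values. How multiply mapped reads were counted is not stated in these sources. Values of near-identical genes are therefore uncertain one by one. Counts of histone genes below take each symbol as a gene of its own, Hist1h2bq and Hist1h2br included. Genes that may share reads are thus not independent in these counts.

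Hist1h4d, an H4 gene, stood highest in mean level. Hist1h4d was at 403.8 and 350.3 RPKM in WT motor neurons, 313.1 and 387.6 in SMA motor neurons, 759 and 410.5 in WT white matter, and 506 and 429.6 in SMA white matter. It alone made up 27.1 to 31.8% of the summed histone RPKM of a motor neuron library and 15.96 to 19.6% of that of a white matter library. Next came the H2B gene Hist1h2bl with a mean over all libraries of 164 RPKM, the linker histone gene Hist1h1e with 158 and the H2B gene Hist1h2bm with 146. The remaining genes among the 12 highest were Hist1h2bf, Hist1h1b, Hist1h2bk, Hist2h3b, Hist1h2ak, Hist2h4, Hist2h2aa2 and Hist1h3e, with means from 77.7 down to 41.2 RPKM. At the other end stood genes known for their use in testis. Hist1h2aa, an H2A variant gene, was listed at 0 in all 4 motor neuron libraries and had 3, 2, 5 and 0 reads in the white matter libraries. The linker variant gene Hist1h1t had 0.699 and 1.22 RPKM in WT motor neurons and 0.0537 and 0.133 in SMA motor neurons. In white matter it had 0.833 and 0.0454 RPKM in WT and 0.136 and 0.320 in SMA. Neither gene reached 1 RPKM in 2 libraries, and the other 66 genes entered the fit.

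**Figure D1:**
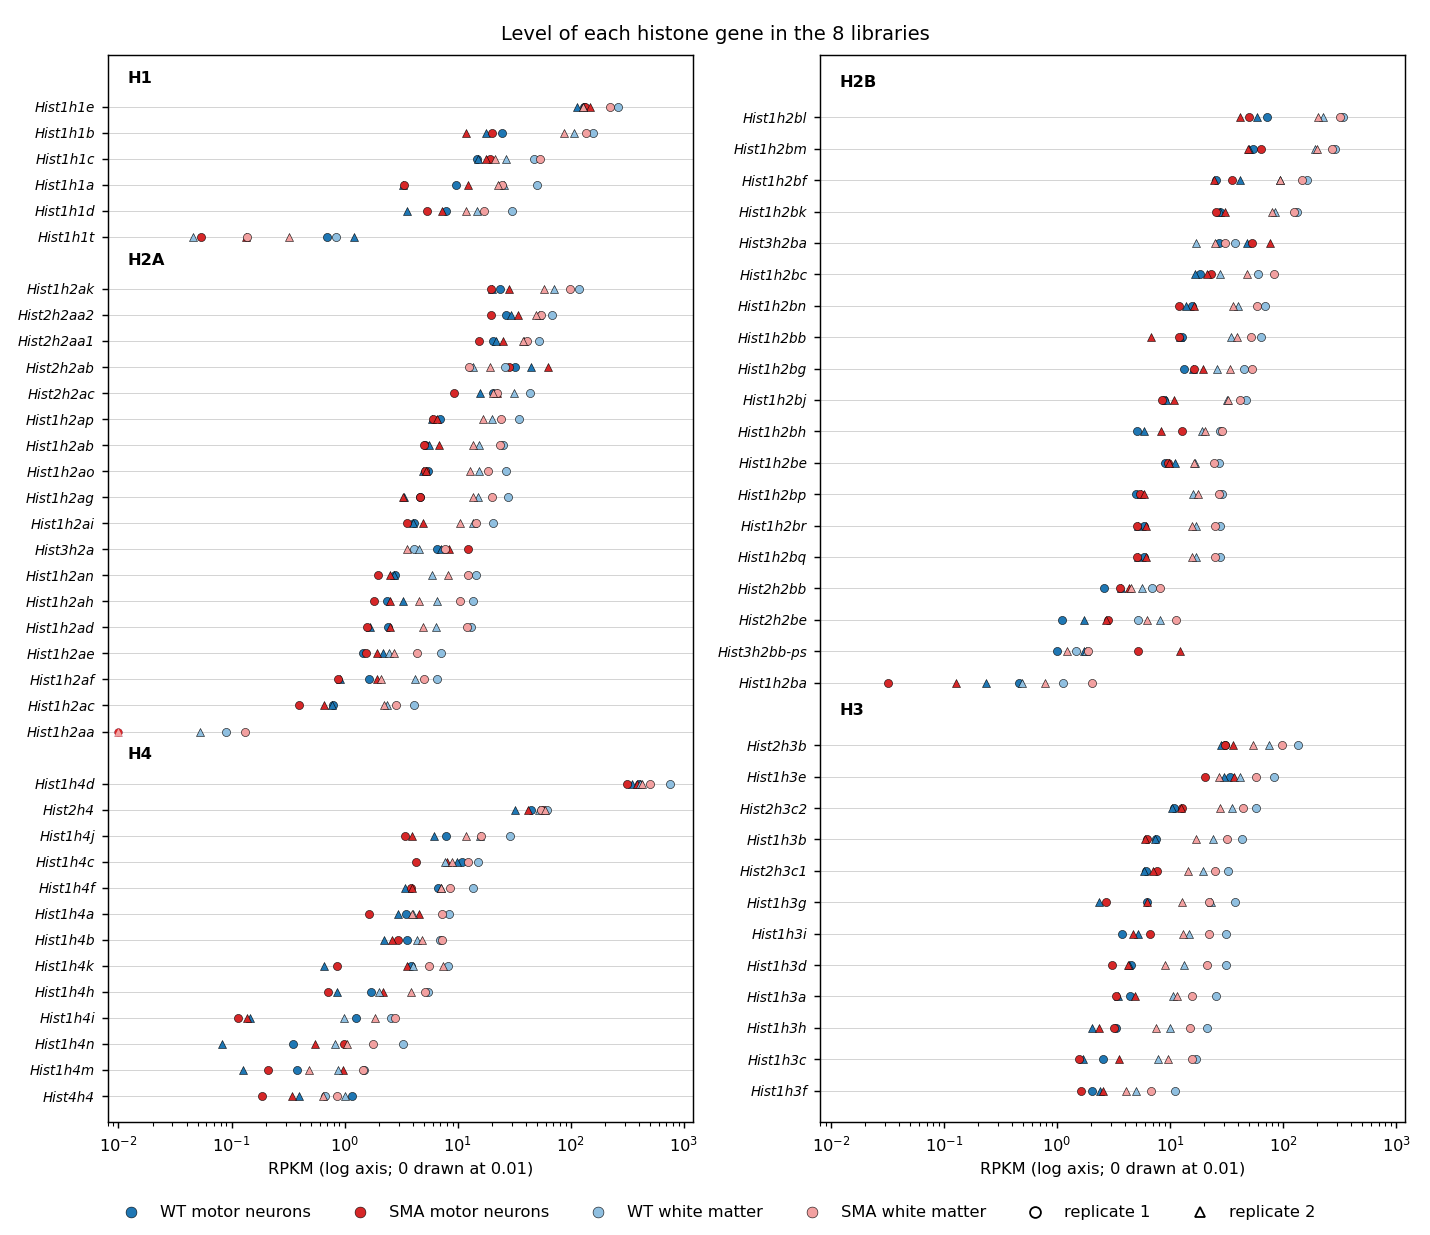
RPKM of each of the 68 histone genes (rows, grouped by family and ordered by mean) in the 8 libraries, on a log axis. Color gives the group, circles replicate 1 and triangles replicate 2. For most genes the pale white matter points lie to the right of the dark motor neuron points, while Hist2h2ab, Hist3h2ba and Hist3h2a show the opposite order or overlap.

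The first comparison set motor neurons against white matter in WT mice. Histone mRNA was lower in motor neurons across most of the group, by about 4-fold for the typical H2B, H2A, H3 or H1 gene and less for H4. Summed over the 68 genes, RPKM was 1272 and 1176 in the WT motor neuron libraries and 3891 and 2291 in the WT white matter libraries (1224 ± 67.8 against 3091 ± 1131, SD, n = 2). Of 66 fitted genes, 43 were lower in motor neurons and 0 higher at an adjusted p below 0.05 (limma on log2(RPKM + 1), Benjamini-Hochberg over all genes). In all, 9.85% of the 13948 fitted genes were lower and 18.6% higher. The median log2 difference of the histone genes was -1.49 beside 0.08 over all fitted genes, and 48 of 66 had an unadjusted p below 0.05 (40.1% of all genes). Both motor neuron libraries lay below both white matter libraries for 58 of 66 genes, against 31% of all genes. Without WT white matter replicate 1 the median of the histone genes was -1.15 (0.10 over all genes). Without WT motor neuron replicate 1 or 2 it was -1.60 or -1.48 (0.05 or 0.13 over all genes). On recovered reads with voom 25 histone genes were called lower, beside 1244 of all fitted genes, against 1374 in the main fit.

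Among the H2B genes, Hist1h2bm had the smallest p. It was at 54.1 and 50.0 RPKM in WT motor neurons, and 289 and 193 in WT white matter. The groups were far apart, and the difference was -2.16 ± 0.27 (log2, SE, adjusted p = 0.000438), or 4.62-fold on the means. Hist1h2bl, the most abundant H2B gene, was at 71.1 and 59.0 RPKM against 339 and 226 (-2.08 ± 0.29, adjusted p = 0.000732). Hist1h2bk was at 27.6 and 27.3 RPKM against 133 and 85.0 (-1.92 ± 0.30, adjusted p = 0.00147), and Hist1h2bj at 8.88 and 9.24 against 46.6 and 32.0 (-1.98 ± 0.29, adjusted p = 0.00103). Of 19 fitted H2B genes, 15 were called lower, with a family median of -1.80.

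Linker histones bind the DNA between nucleosomes, and their genes differed among themselves. Hist1h1b, whose reading frame shared no 50-base stretch with another transcript, was at 24.5 and 17.8 RPKM in WT motor neurons and 158 and 107 in WT white matter. This 6.27-fold difference was -2.58 ± 0.35 on the log2 scale (adjusted p = 0.000657) and stayed past the threshold under all 18 alternatives tried. Hist1h1e, more abundant, was at 131 and 114 RPKM against 259 and 130. Its groups did not separate by much, since WT white matter replicate 2 lay inside the motor neuron range, and it did not pass (-0.59 ± 0.35, adjusted p = 0.248). With quantile normalization or an equal RPKM sum without Rn45s it did (adjusted p = 0.0109 and 0.0423; the 18 alternatives ranged from 0.0109 to 0.890). In all, 3 of 5 fitted H1 genes were called lower.

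All 12 H3 genes had both WT motor neuron libraries below both WT white matter libraries, 11 were called lower, and the family median was -1.99. Hist2h3c2 was at 10.7 and 10.4 RPKM against 57.3 and 35.3 (-1.99 ± 0.32, adjusted p = 0.00169). Hist2h3b, the most abundant, was at 30.6 and 27.9 against 135 and 74.8 (-1.75 ± 0.35, adjusted p = 0.00523). The exception to the call was Hist1h3e, at 33.7 and 29.8 RPKM against 82.8 and 41.7 (-0.87 ± 0.44, adjusted p = 0.171), which passed in 2 of 18 alternatives. Of 17 fitted H2A genes, 13 were called lower, with a median of -1.47. The most abundant, Hist1h2ak, was at 23.8 and 19.96 RPKM against 119 and 71.1 (-2.03 ± 0.35, adjusted p = 0.00233). Hist2h2aa2 was at 26.7 and 29.8 against 68.4 and 51.9 (-1.05 ± 0.30, adjusted p = 0.0261), a call that was lost when any WT library was left out (adjusted p up to 0.153) and with voom.

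The median difference of the 13 fitted H4 genes was -0.77, and 1 was called lower, although 10 had both motor neuron libraries below both white matter ones. That gene, Hist1h4j, was at 7.82 and 6.16 RPKM against 29.0 and 15.9 (-1.503 ± 0.35, adjusted p = 0.0110). Hist1h4d, the most abundant gene of all, was at 404 and 350.3 against 759 and 410.5, a difference of -0.57 ± 0.28 (adjusted p = 0.165) that passed in 3 of 18 alternatives (adjusted p from 0.00318 to 0.765). Hist2h4 was at 44.9 and 32.3 against 61.4 and 52.8 (-0.57 ± 0.26, adjusted p = 0.139). On the linear scale the median white matter to motor neuron ratio was 2.05 for H4 genes in WT, beside 3.90 for H2B, 3.78 for H2A, 4.54 for H3 and 3.93 for H1 genes. The H4 share of the summed histone RPKM was 38.5 and 34.8% in WT motor neurons and 23.5 and 22.3% in WT white matter. In SMA it was 33.7 and 33.9% in motor neurons and 19.8 and 24.7% in white matter, so all 4 motor neuron libraries lay above all 4 white matter libraries. Most of this share was Hist1h4d alone, with 27.1 to 31.8% of the sum in motor neuron libraries and 15.96 to 19.6% in white matter libraries. The order of the shares is therefore mainly that of Hist1h4d and is not read as a trait of the family. The families differed in the letters of stem and promoter as given above, and whether either bears on the levels was not tested.

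**Figure D2:**
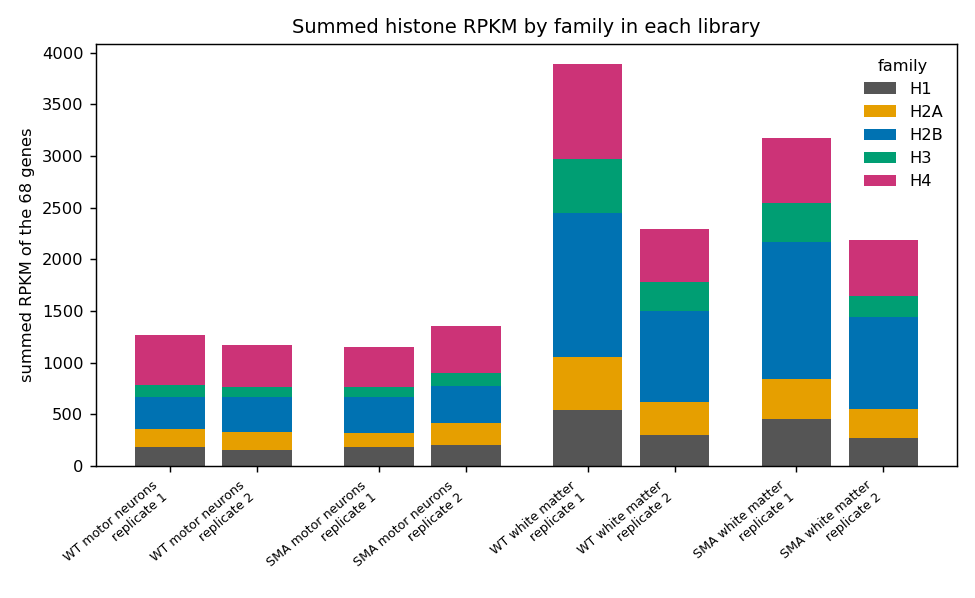
Summed RPKM of the 68 histone genes in each library (bars), split by family (colors). The motor neuron bars reach 1156 to 1357 and the white matter bars 2187 to 3891. The H4 segment, most of it Hist1h4d, takes a larger share in motor neurons.

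The same comparison in SMA mice, used separate libraries, and most histone genes were again lower in motor neurons. Summed RPKM was 1156 and 1357 in SMA motor neurons and 3173 and 2187 in SMA white matter (1256 ± 142 against 2680 ± 698, SD, n = 2). Of 66 genes, 39 were lower and 2 higher in motor neurons, against 17.2% and 13.6% of all fitted genes. The median was -1.33 beside -0.24 over all genes, and both motor neuron libraries lay below both white matter libraries for 56 of 66 (37.2% of all genes). Hist1h2bl had the smallest p, at 50.1 and 41.8 RPKM in SMA motor neurons and 318 and 203 in SMA white matter (-2.45 ± 0.29, adjusted p = 0.000421). Hist1h1b was at 20.3 and 11.7 against 138 and 87.1 (-2.75 ± 0.35, adjusted p = 0.000609). Hist1h2bm (-2.03 ± 0.27, adjusted p = 0.000747), Hist1h2bj (-1.84 ± 0.29), Hist1h2bb (-2.20 ± 0.37) and Hist1h2bk (-1.80 ± 0.30) followed. Without SMA white matter replicate 1, the higher of its group by sum, the median was -1.02 (-0.18 over all genes). Without replicate 2 it was -1.60 (-0.25 over all genes). With only the SMA libraries in the fit 23 histone genes were called lower, and with voom 16. Over all fitted genes these fits called 1250 and 2353 lower, against 2398 in the main fit.

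By family, 14 of 19 H2B, 12 of 17 H2A, 10 of 12 H3, 2 of 13 H4 and 1 of 5 H1 genes were called lower in SMA motor neurons. Taken over both genotypes, all 4 motor neuron libraries lay below all 4 white matter libraries for 51 of the 66 genes, against 20.7% of all fitted genes. Hist2h2ab was the 1 histone gene with all 4 above (21.5% of all genes). In 8 of the 9 head-to-head pairs both genes were fitted, and their differences in WT are given for 3. The pair Hist1h2bj and Hist1h2ag, for example, had -1.98 and -2.11, Hist1h2bn and Hist1h2ak -1.78 and -2.03, and the weakest pair, Hist1h2bg and Hist1h2ae, -1.18 and -0.92. Pair members share a promoter region and, through similar sequence, may share reads.

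**Figure D3:**
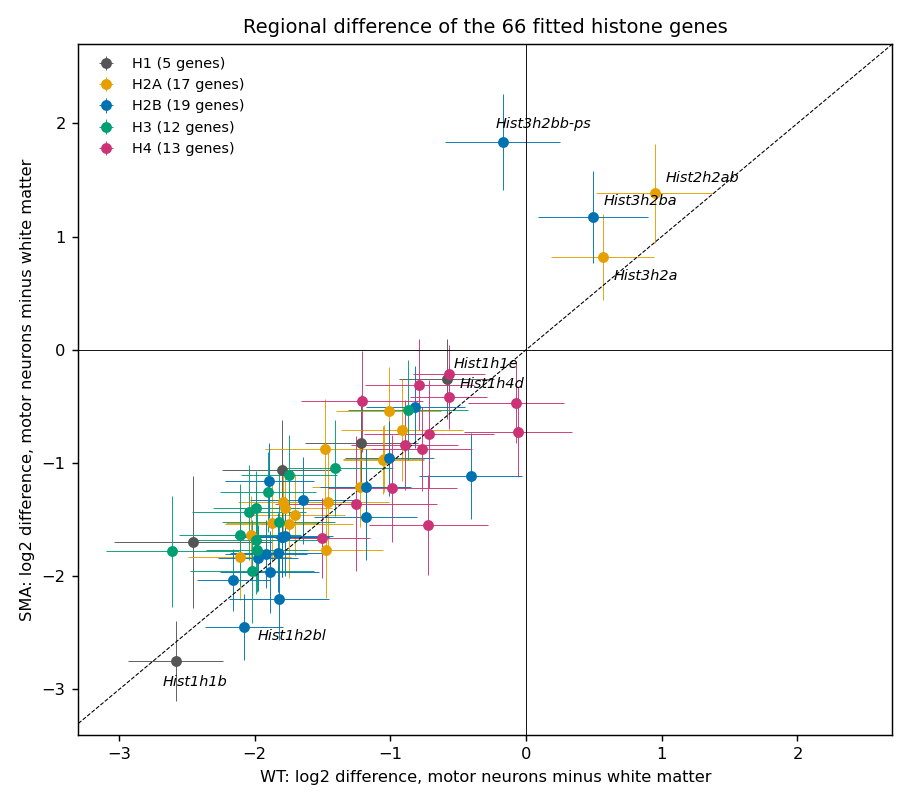
Log2 difference of motor neurons minus white matter for the 66 fitted histone genes in WT (x axis) and SMA (y axis), with SE bars, colored by family, with the line of equality dashed. Most genes lie in the lower left part, H4 genes nearer to 0, and Hist2h2ab, Hist3h2ba and Hist3h2a lie above 0 in both.

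In SMA 2 genes were called higher in motor neurons, Hist2h2ab and Hist3h2bb-ps, and neither was in WT. Hist3h2ba and Hist3h2a passed in neither genotype and are given for their positive values. The Hist3 cluster and Hist2h2ab are annotated away from the large Hist1 cluster, on chromosomes 11 and 3. Hist2h2ab, an H2A gene, was at 32.0 and 44.7 RPKM in WT motor neurons and 26.4 and 13.7 in WT white matter. In SMA it was at 28.5 and 62.8 in motor neurons and 12.6 and 19.3 in white matter, so the regions did not overlap in either genotype. The difference was 0.95 ± 0.44 in WT (adjusted p = 0.134) and 1.38 ± 0.44 in SMA (adjusted p = 0.0379). The SMA call was lost in 10 of 18 alternatives (adjusted p up to 0.206), among them those without SMA motor neuron replicate 2, either SMA white matter library or either WT motor neuron library.

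Hist3h2ba, an H2B gene of the Hist3 cluster, was at 27.1 and 48.3 RPKM in WT motor neurons and 37.7 and 17.1 in WT white matter, which overlap (0.49 ± 0.41, adjusted p = 0.405, and -0.057 without WT white matter replicate 2). In SMA it was at 52.9 and 76.1 in motor neurons and 30.6 and 24.8 in white matter, which do not (1.17 ± 0.41, adjusted p = 0.0540, past the threshold in 6 of 18 alternatives). Hist3h2a, its H2A neighbor, was at 6.57 and 7.17 against 4.08 and 4.56 in WT and 12.3 and 8.39 against 7.80 and 3.58 in SMA. Neither of its differences passed (0.57 ± 0.38 and 0.82 ± 0.38, adjusted p = 0.302 and 0.130). All 50-base stretches of its reading frame are also in a Trim17 transcript, so reads from that stretch cannot be assigned to 1 of these genes. Sharing outside the reading frame was not measured. Both genes carried a stem-loop of the common form, as shown above.

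The second gene called higher in SMA motor neurons was Hist3h2bb-ps, an annotated pseudogene of the same cluster. It was at 5.21 and 12.1 RPKM in SMA motor neurons and at 1.87 and 1.23 in SMA white matter (1.84 ± 0.42, adjusted p = 0.0106). In WT it was at 0.992 and 1.72 RPKM in motor neurons and 1.46 and 1.80 in white matter. Thus both SMA motor neuron libraries were above the other 6. The regional call was lost with voom, with only the SMA libraries in the fit and without SMA white matter replicate 2 (adjusted p = 0.0790, 0.0518 and 0.0764). Of the 50-base stretches of its reading frame 30.0% are shared with Hist3h2ba, and reads of the pair may be mixed.

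Replicate 1 of white matter stood above replicate 2 for nearly all histone genes in both genotypes. In WT white matter 62 of 66 genes were higher in replicate 1, with a median RPKM ratio of 1.76, and in SMA white matter 63 of 66, with a median ratio of 1.55. Over all fitted genes the median log2 difference between these replicates was 0.03 in WT and 0.11 in SMA. In motor neurons replicate 1 was higher for 46 of 66 genes in WT and for 19 of 66 in SMA, with median ratios of 1.10 and 0.814. The S-phase list had sums of 246 and 218 RPKM in WT white matter and 329 and 229 in SMA white matter. Oligodendrocyte markers had sums of 3654 and 1840 RPKM in WT and 4606 and 2402 in SMA. Markers of their precursors had 472 and 432 in WT and 696 and 515 in SMA. Not all lists were higher in replicate 1. Astrocyte markers had 1073 and 1229 in WT and 1594 and 1354 in SMA, and microglia markers 273 and 286 in WT and 372 and 428 in SMA. The part of these lists in the replicate difference, and that of Xist and Ddx3y, was not tested.

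The comparison of SMA with WT sets libraries without mouse Smn against those with it. In motor neurons no histone gene passed (0 of 66, and 0% of all 13948 genes), and 2 had an unadjusted p below 0.05, against 4.37% of all genes. The median difference was 0.02, beside -0.05 over all genes, with 37 genes above 0 and 29 below. Both SMA libraries lay above both WT libraries for 12 genes (12.7% of all genes) and below for 11 (15.5% of all genes). By median, H1 genes were at 0.19, H2B at 0.07, H3 at 0.06, H2A at -0.01 and H4 at -0.11. In a simulation of this comparison, genes drawn from all fitted genes were given changes in log2(RPKM + 1), with independent noise for each gene. Those given a change of 1 were called in 3.28% of cases, those given 2 in 44.5% and those given 4 in 88.8%. Most changes of 1 on this scale would thus not have been called in such data. Histone genes, which may move together, were not simulated as a group.

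The largest difference was that of Hist3h2bb-ps, at 0.992 and 1.72 RPKM in WT and 5.21 and 12.1 in SMA motor neurons (1.96 ± 0.42, adjusted p = 0.556 with limma). It passed in 1 of 18 alternatives, without SMA motor neuron replicate 1 (adjusted p = 0.0317; the others reached up to 1), when 16 genes were called higher and 107 lower over all fitted genes. Hist1h2bh, an H2B gene, was at 5.13 and 5.86 RPKM in WT and 12.8 and 8.25 in SMA (0.80 ± 0.33, adjusted p = 1), without overlap. Hist3h2ba (0.79 ± 0.41), Hist2h2be (0.64 ± 0.38) and Hist3h2a (0.51 ± 0.38) also had both SMA libraries above both WT ones. On the other side Hist1h4j was at 7.82 and 6.16 in WT and 3.45 and 3.93 in SMA (-0.76 ± 0.35, adjusted p = 1), again without overlap. Hist1h4c, Hist1h4i, Hist1h2bl and Hist4h4 had differences of -0.71, -0.52, -0.49 and -0.46, each with an adjusted p of 1.

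In white matter 0 of 66 genes passed (0% of all genes with limma), 0 had an unadjusted p below 0.05 (6.31% of all genes), and 52 of 66 differences were below 0. The median was -0.18 while that of all fitted genes was 0.27. Both SMA libraries lay below both WT libraries for 3 genes (4.17% of all genes) and above for 0 (39.7% of all genes). Family medians were -0.42 for H3, -0.27 for H2A, -0.25 for H1, -0.07 for H4 and -0.05 for H2B. The histone median turned above 0 with single libraries left out, but stayed below that of all genes. It was 0.18 without WT white matter replicate 1 (0.28 over all genes). Without SMA white matter replicate 2 it was 0.10 (0.33 over all genes). With median-of-ratios scaling it was -0.46, and that of all genes 0.00. Hist2h2ac, an H2A gene, had the smallest p, at 43.9 and 31.4 RPKM in WT and 22.3 and 20.4 in SMA (-0.77 ± 0.39, adjusted p = 0.741). Hist1h3g was at 37.1 and 22.8 against 21.9 and 12.7 (-0.76 ± 0.49, adjusted p = 0.760). Hist1h2bc, at 59.5 and 27.8 in WT and 82.6 and 48.2 in SMA, had the highest value above 0 (0.62 ± 0.38, adjusted p = 0.756).

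**Figure D4:**
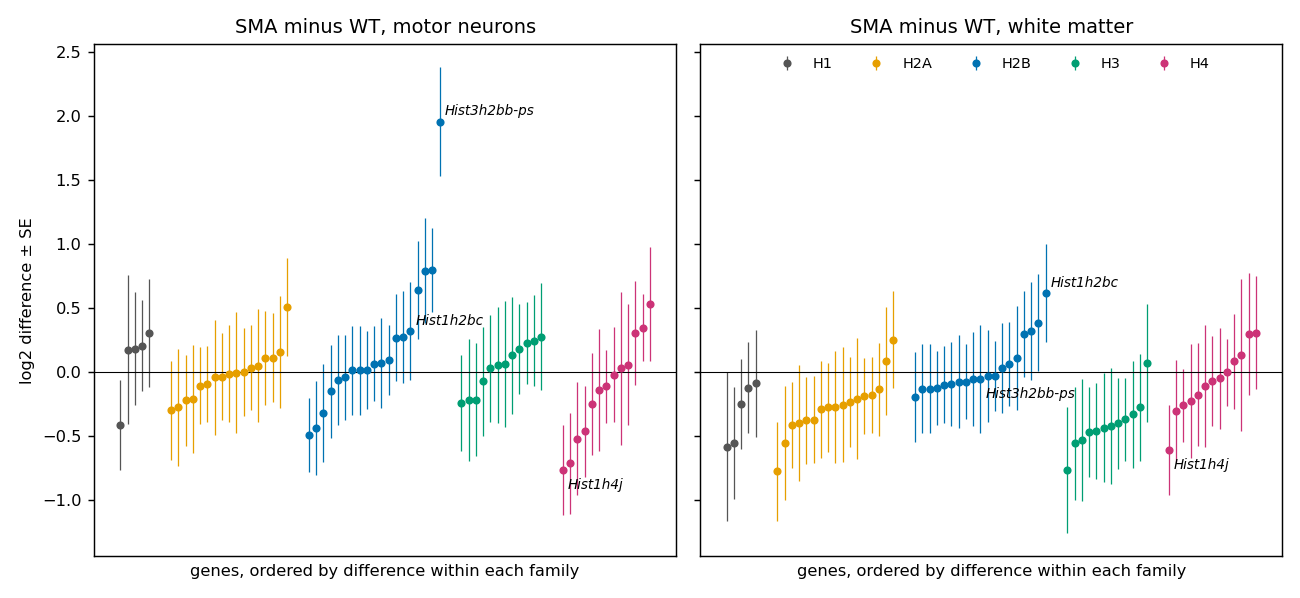
Log2 difference of SMA minus WT with SE for each of the 66 fitted histone genes in motor neurons (left) and white matter (right), ordered within each family. Values scatter around 0 in motor neurons apart from Hist3h2bb-ps at 1.96, and 52 of 66 lie below 0 in white matter. No gene passed the test in either.

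The difference of the SMA effect between regions was tested as an interaction. No histone gene passed (0 of 66, and 0% of all genes), 1 had an unadjusted p below 0.05 (4.97% of all genes), and the median was 0.22 beside -0.33 over all genes. Hist3h2bb-ps had the smallest p (2.01 ± 0.60, adjusted p = 0.883). Hist1h2bh (0.74 ± 0.47), Hist2h3c2 (0.59 ± 0.46) and Hist2h3b (0.64 ± 0.50) followed above 0. Hist1h4i (-0.83 ± 0.62), Hist1h2ba (-0.70 ± 0.54), Hist1h4c (-0.67 ± 0.56) and Hist1h2bl (-0.37 ± 0.41) stood below 0, each with an adjusted p of at least 0.883. Averaged over both regions, 0 genes passed (0% of all genes) and 2 had an unadjusted p below 0.05 (5.99% of all genes), Hist3h2bb-ps at 0.95 ± 0.30 and Hist1h4j at -0.68 ± 0.25 (adjusted p = 0.761 and 0.764).

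Genes that make, process and degrade histone mRNA were read beside the histone genes, from a list of 28. In WT, 3 of 27 fitted were higher and 2 lower in motor neurons, and in SMA 1 was higher and 6 lower. Over all fitted genes 18.6% were higher and 9.85% lower in WT, and 13.6% and 17.2% in SMA, so these counts are not read as a result about the list. Lsm11, of the U7 ring, was at 12.6 and 9.77 RPKM in WT motor neurons against 2.56 and 1.44 in WT white matter (2.04 ± 0.36, adjusted p = 0.00256). In SMA it was at 14.2 and 10.8 against 3.48 and 2.21 (1.82 ± 0.36, adjusted p = 0.00500), so it ran opposite to the histone genes in both genotypes. Slbp was at 23.3 and 17.6 RPKM against 4.38 and 9.52 in WT (1.498 ± 0.39, adjusted p = 0.0185), and in SMA at 16.5 and 9.70 against 8.57 and 8.62 (0.51 ± 0.39, adjusted p = 0.343). Lsm10, the partner of Lsm11, showed no such pattern, with 9.32 and 9.23 against 11.4 and 8.68 RPKM in WT (-0.09 ± 0.40, adjusted p = 0.889). Npat, the cell-cycle-driven activator of histone transcription, was at 4.43 and 2.81 against 5.96 and 8.28 (-0.82 ± 0.52, adjusted p = 0.268), and its partner Casp8ap2 at 1.52 and 1.02 against 1.61 and 4.30 (-0.72 ± 0.49, adjusted p = 0.305). Cdk2, the S-phase kinase that acts on Npat, was lower, at 0.361 and 0.212 against 5.39 and 3.41 RPKM (-2.05 ± 0.36, adjusted p = 0.00267). Snrpg, of the Sm ring, was at 2.77 and 1.84 against 5.74 and 6.16 (-1.09 ± 0.34, adjusted p = 0.0372). In SMA against WT none of the 27 passed in either region.

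**Figure D5:**
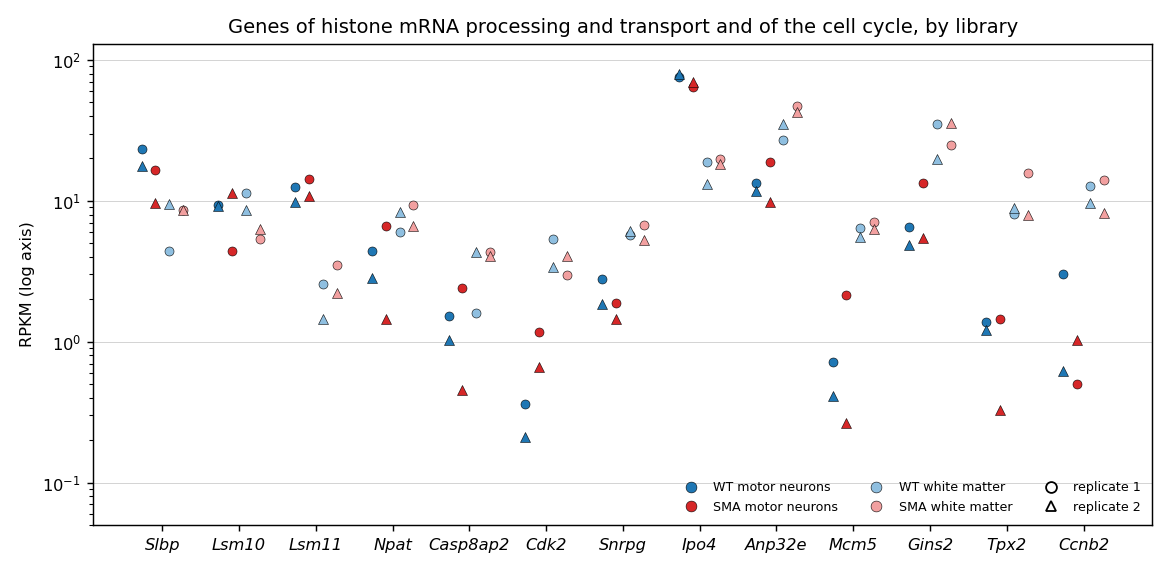
RPKM (log axis) in the 8 libraries of Slbp, Lsm10, Lsm11, Npat, Casp8ap2 and of genes with the smallest p between WT regions in the lists of histone mRNA processing, chaperones, S phase and mitosis. Colors and symbols as in the plot of all histone genes. Lsm11 and Ipo4 lie higher in motor neurons in both genotypes, and Mcm5, Gins2, Tpx2 and Ccnb2 lower.

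Histone chaperones and importers carry new histones to DNA. Of 20 such genes 1 was higher and 3 lower in WT motor neurons, and 1 higher and 8 lower in SMA, beside the same shares of all genes (18.6% and 9.85% in WT, 13.6% and 17.2% in SMA). The higher gene was Ipo4, an importin for histones H3 and H4, at 75.3 and 79.5 RPKM against 18.7 and 13.2 in WT (2.23 ± 0.25, adjusted p = 0.000243) and at 64.4 and 69.5 against 19.8 and 18.3 in SMA (1.76 ± 0.25, adjusted p = 0.00106). Anp32e, a chaperone of H2A.Z, was lower in WT motor neurons (-1.23 ± 0.33, adjusted p = 0.0204), as were Hjurp, a chaperone of the centromeric H3 (-1.07 ± 0.33, adjusted p = 0.0369), and Mcm2 (-1.19 ± 0.39, adjusted p = 0.0457). Histone variants encoded outside the histone clusters are mostly made outside S phase too, largely from polyadenylated mRNA. Of 11 fitted, 3 were lower and 0 higher in WT motor neurons, with a median of -1.08, and 4 were lower in SMA, beside 9.85% and 17.2% of all genes. H2afy, macroH2A, was at 6.06 and 5.37 against 31.3 and 26.4 RPKM in WT (-2.15 ± 0.30, adjusted p = 0.000718), and H2afv, an H2A.Z gene, at 7.67 and 4.30 against 20.7 and 21.3 (-1.70 ± 0.32, adjusted p = 0.00370). H3f3b, of the H3.3 pair, was also lower (-1.08 ± 0.29, adjusted p = 0.0218), and H3f3a did not pass (-2.10 ± 0.76, adjusted p = 0.0662).

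Part of the genes of DNA replication and mitosis were lower in motor neurons. Of 30 fitted S-phase genes, 15 were lower and 0 higher in WT motor neurons, with a median of -1.16, and 19 were lower in SMA (median -1.37), against 9.85% and 17.2% of all fitted genes called lower in WT and SMA. Mcm5, of the replicative helicase, was at 0.719 and 0.411 RPKM against 6.40 and 5.57 in WT (-2.16 ± 0.44, adjusted p = 0.00563). Gins2, of the same helicase, was at 6.57 and 4.86 against 35.1 and 19.9 (-2.05 ± 0.44, adjusted p = 0.00700). Mcm6 (-1.57 ± 0.35) and Rrm2 of nucleotide reduction (-1.64 ± 0.38) followed. Of 20 mitosis genes, 11 were lower in WT (median -1.501) and 19 in SMA (median -2.00), led by the spindle gene Tpx2 at 1.38 and 1.21 against 8.13 and 8.87 RPKM in WT (-2.05 ± 0.42, adjusted p = 0.00605). None of these genes passed in SMA against WT. The summed level of the S-phase list was 72.4 to 112 RPKM in motor neuron libraries and 218 to 329 in white matter libraries, without overlap.

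The captures differed in cell type markers, of which some were lower in motor neurons, some higher, and some hardly different. All 10 motor neuron markers were higher in WT motor neurons, with sums of 2420.5 and 2063 RPKM against 25.6 and 17.1. All 8 oligodendrocyte markers were lower there (64.9 and 41.6 against 3654 and 1840 RPKM), as were 7 of 8 markers of their precursors (101 and 89.0 against 472 and 432), all 10 of microglia (29.8 and 34.9 against 273 and 286), 7 of 8 of astrocytes and 4 of 8 of radial glia or neural stem cells. Meningeal or fibroblast markers were lower for 6 of 6 fitted genes (4.17 and 4.93 against 60.6 and 99.9 RPKM) and red blood cell markers for 3 of 6 (186 and 366 against 1472 and 608). Of pericyte markers 1 of 6 was lower, and of endothelial markers 0 of 8 (28.4% of all genes were called in either direction by limma). No microglia, precursor or oligodendrocyte marker was listed at 0 in both libraries of a motor neuron group. Markers of spinal interneurons, 6 of 9 fitted, were higher in WT motor neuron captures. Fewer cells of a dividing type and less histone mRNA per cell cannot be told apart in such samples, and the part of each cell type in the histone difference was not tested.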

How the data were processed

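Total RNA of 8 laser-captured libraries (4 groups of 2) was analysed from 1 table per library. The authors deposited RPKM per gene symbol, made with TopHat, bedtools and DESeq on mm9 per the submitters' processing notes. These notes state no versions, annotation, strand setting or treatment of multiply mapped reads. Genes with at least 1 RPKM in at least 2 libraries (13948 of 23278, 66 of 68 histone genes) were fitted as log2(RPKM + 1) with limma 3.58.1 in R 4.3.3 (4 group means over all 8 libraries, eBayes with trend, two-sided, Benjamini-Hochberg over all fitted genes, threshold 0.05). The scale understates changes of low genes, and a fold is a ratio of mean RPKM. Reads were recovered from RPKM steps (17430 of 17431 genes, values within 0.02 of a whole read). False calls were 3.99 to 5.46% of calls on data simulated with independent noise for each gene and 200 changed genes. Shifts shared by many genes of a library were not simulated, so this share need not hold for the regional calls. Sequences came from GENCODE M21 and RefSeq. Python 3.11.15 with pandas 2.3.3 and matplotlib 3.10.9 was used otherwise. Members and lists were chosen with earlier results of these data known. Histone genes were named by a rule: the 12 highest by mean, the 6 smallest p per direction and contrast (4 for the interaction), and the highest and lowest of each family. Of other lists the 4 smallest p were named, with Lsm10, Lsm11, Slbp, Npat and Casp8ap2. Alternatives varied the added value, filter, scaling, fit, block and libraries.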

Additional observations from a re-analysis of the deposited data

How the results depend on the processing

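The regional difference kept its direction under all 18 alternatives, while the number of called genes did not keep its size. In WT, against 43 lower and 0 higher, voom on recovered reads gave 25 lower with a median of -1.87, and a fit of only the WT libraries gave 1 higher. Leaving out 1 library gave 22 to 45 lower, 0 to 1 higher and a median from -1.93 to -1.15. In SMA, against 39 lower and 2 higher, voom gave 16 lower and 0 higher, a fit of only the SMA libraries 23 and 1, and either no filter, quantile normalization or an equal RPKM sum without Rn45s gave 1 higher. Leaving out 1 library gave 7 to 38 lower, 0 to 3 higher and a median from -1.60 to -1.02. For SMA against WT, leaving out 1 library gave medians from -0.11 to 0.19 in motor neurons. They ran from -0.51 to 0.18 in white matter and from -0.28 to 0.10 over both regions. The interaction median was 0.63 with quantile normalization, when that of all genes was -0.02, and -0.17 to 0.58 with 1 library left out. The causes were not tested.

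Scaling moved all genes. An equal sum without Rn45s shifted the WT regional median of all genes from 0.08 to -0.24 and its calls from 2593 higher and 1374 lower to 1993 and 2519 (2218 and 2086 with quantile normalization), with 53 histone genes lower. In white matter SMA against WT, median-of-ratios scaling brought the all-gene median from 0.27 to 0.00 and that of the histone genes to -0.46.

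Of 59 results on named genes, 42 kept direction and call under every alternative run. Those that changed sign were not called in any setting. In white matter SMA against WT, Hist1h2bg took -0.0260, -0.0377 and -0.0534 with median-of-ratios, quantile and equal-sum scaling, and -0.093 to 0.69 with 1 library left out. Hist3h2a took -0.0214, -0.0271 and -0.0482 with these scalings and -0.21 to 0.73 with 1 library left out. Leaving out 1 library moved Hist1h4i between -0.11 and 0.73, Hist2h2be between -0.058 and 0.70, and, between WT regions, Hist3h2ba between -0.057 and 1.04. In the interaction Hist1h2bl took 0.0076 under median-of-ratios and 0.013 under quantile scaling.

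With the replicate number as a block, 45 histone genes were lower in WT and 38 lower and 2 higher in SMA, and no gene passed in SMA against WT. Over all 13948 fitted genes this fit called 1309 lower in WT, and 2295 lower and 1843 higher in SMA. The numbers come from the labels but name no animals, and deviations of same-numbered libraries from their group means correlated at -0.34 to 0.08 over all genes, so no pairing was assumed.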
